A study of Homo sapiens with 8 samples.

Results

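The TRAF family was followed across RNA sequencing and ribosome profiling (Ribo-seq) of MDA-MB-231 cells, an established triple-negative breast cancer line. It comprises 7 genes, TRAF1 to TRAF7, of 19892 in the deposited table. The family was chosen by the measured values of TRAF6, which had fewer ribosome footprints after ADAR1 depletion while its RNA did not fall. TRAF6 values in RNA, footprints and translational efficiency are therefore given as a description with no test. The other 6 members came with the family name and were tested. All 7 passed the filter on low counts in every comparison.

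Cells received either an siRNA against ADAR1 (Si-ADAR in the labels) or a control siRNA (NC-ADAR), and nothing else distinguishes the groups in the labels. ADAR1, the product of ADAR, is an enzyme that deaminates adenosines to inosines where RNA is base-paired. Each siRNA was profiled as Ribo-seq, made from fragments of about 30 nt, and as Input, made from fragments of 40 to 60 nt that stand for RNA level. There were 2 libraries in each of the 4 groups, 8 in all. Whether the replicates came from different cultures is not in the labels. The p-values below therefore reflect library-to-library spread, which may be only technical. The labels name neither the siRNA sequence nor how long the cells carried it.

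TRAF proteins are adaptors that bind the cytoplasmic tails of TNF receptor family members or the adaptors of interleukin 1 and Toll-like receptors, and pass the signal to NF-kB, MAP kinases and interferon regulatory factors. Most members carry a RING finger that acts in ubiquitin transfer and a C-terminal MATH domain that contacts receptors. TRAF1 lacks the RING, and TRAF7 has WD40 repeats in place of the MATH domain. In breast cancer cells these routes are known for survival signalling and cytokine production.

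Total estimated counts were 15732757 to 17153716 per Input library and 10492223 to 14875465 per Ribo-seq library. ADAR itself stood at 14.8 and 30.6 TPM (a level scaled for transcript length and library size) in ADAR1 siRNA Input, against 106.2 and 110.2 TPM in control Input. In Ribo-seq it stood at 1.55 and 8.41 TPM with ADAR1 siRNA and at 19.1 and 20.3 TPM with control siRNA, so depletion was deeper in replicate 1 of both assays. All 8 genes listed as markers of the line, among them VIM, CD44 and EGFR, were at 50 TPM or more in each Input library. Of 6 genes listed as low or absent, ESR1, PGR, CDH1 and FOXA1 were below 1 TPM in each Input library, but GATA3 and TFF1 were not. GATA3 averaged 7.15 TPM in ADAR1 siRNA Input and 7.41 TPM in control Input. TFF1 stood at 11.5 and 1.43 TPM in ADAR1 siRNA Input, against 11.3 and 11.4 TPM in control Input, so its ADAR1 siRNA libraries differed widely. Of 7 immune markers, CD68 averaged 181.0 TPM in ADAR1 siRNA Input and 232.0 TPM in control Input, whereas 4 others stayed under 1 TPM in each Input library. The summed immune markers ran from 181.0 to 185.9 TPM in ADAR1 siRNA Input and from 235.7 to 236.1 TPM in control Input, nearly all of it CD68, and CD3E averaged 0 TPM in ADAR1 siRNA Input. Endothelial and fibroblast marker sums stayed at or under 8.78 TPM in every Input library. The part of other cell types in the TRAF values was not tested. In bulk samples fewer cells of a type and less RNA per cell cannot be told apart.

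TRAF6 (NCBI gene 7189, chromosome 11, 36483769 to 36510272, GRCh38.p14) encodes the ubiquitin ligase that relays interleukin 1 and Toll-like receptor signals to the kinase MAP3K7. Its footprints stood at 8.51 and 12.6 TPM in ADAR1 siRNA Ribo-seq, against 28.4 and 26.8 TPM in control Ribo-seq. Both ADAR1 siRNA libraries lay below both controls, at 30.8% and 45.6% of the control mean. Its RNA stood at 10.96 and 10.2 TPM in ADAR1 siRNA Input, against 8.14 and 8.002 TPM in control Input. Here both ADAR1 siRNA libraries lay above both controls.

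The authors' deposited table gives TRAF6 a translational efficiency, the Ribo-seq TPM divided by the Input TPM, of 0.776 and 1.24 with ADAR1 siRNA and of 3.50 and 3.35 with control siRNA. In edgeR fits over the whole table, the log2 fold change of TRAF6 was -1.14 ± 0.19 (SE) in footprints, 0.33 ± 0.09 in RNA and -1.45 ± 0.20 in translational efficiency. Without ADAR1 siRNA Ribo-seq replicate 1 the footprint value was -0.97, and without replicate 2 it was -1.38. From the lowest value up, TRAF6 ranked 79 of 12000 genes in footprint change and 169 of 12953 in translational efficiency change. These are the values that chose the family, and nothing is read from their size.

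The 4 footprint counts of TRAF6 were 234.91 and 316.38 with ADAR1 siRNA and 519.83 and 417.76 with control siRNA, so each held a fraction of a read. Its 4 Input counts were whole, at 523 and 530 with ADAR1 siRNA and 401 and 415 with control siRNA. Fractional counts in all 4 Ribo-seq libraries and in no Input library occurred in 755 of 12000 tested genes (6.29%), and in no other TRAF gene. Those 755 genes had a median log2 footprint change of 0.03, against 0.05 over all tested genes, and 5 of them, TRAF6 included, lay at or below TRAF6. The labels do not say how reads were divided, and the part of shared reads in the TRAF6 value was not tested.

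The ratio of count to TPM is proportional to the transcript length the authors used. Relative to TRAF1 in the same library, this length for TRAF6 was 0.924 and 0.902 in ADAR1 siRNA Ribo-seq, against 0.810 and 0.813 in control Ribo-seq. In Input it was 1.78 and 1.75 with ADAR1 siRNA and 1.83 and 1.75 with control siRNA. For TRAF2 the same ratio was 1.20 in each of the 4 Ribo-seq libraries and between 0.553 and 0.576 in Input. The lengths behind the 2 assays thus differed by gene, and for TRAF6 the Ribo-seq length also differed between the siRNA groups. The TPM difference of TRAF6 thus includes this difference in length, whereas the log2 value of -1.14 comes from counts, which carry no length.

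TRAF6 footprints took 14.7% and 23.1% of the summed footprint TPM of the 7 genes in ADAR1 siRNA Ribo-seq, against 42.1% and 38.9% in control Ribo-seq. The family sum was 57.9 and 54.4 TPM with ADAR1 siRNA and 67.6 and 68.8 TPM with control siRNA. The other 6 genes together held 49.4 and 41.9 TPM with ADAR1 siRNA and 39.1 and 42.0 TPM with control siRNA, so their sums overlapped. In Input, TRAF6 held 5.44% and 5.96% of the family sum with ADAR1 siRNA and 4.51% and 4.33% with control siRNA.

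**Figure D1:**
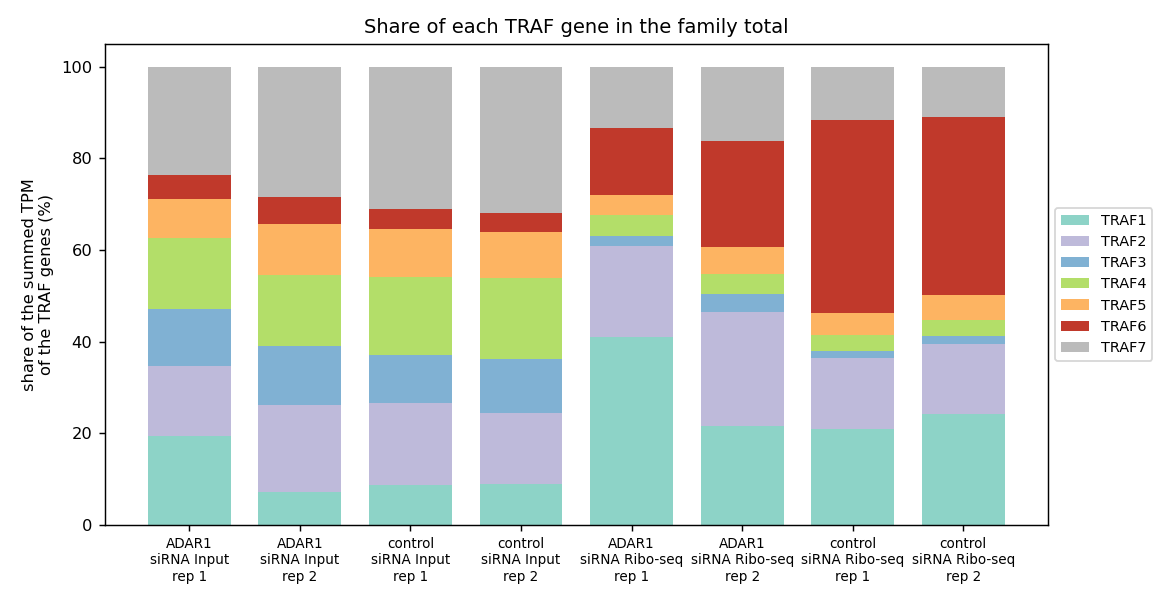
Share of each TRAF gene in the summed TPM of the 7 genes (y axis, percent), 1 bar per library, Input at left and Ribo-seq at right with ADAR1 siRNA before control siRNA. TRAF6 (red) takes 14.7% and 23.1% of the footprint bars with ADAR1 siRNA and 42.1% and 38.9% with control siRNA, but under 6% of each Input bar.

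The order of levels differed between the assays. In control Input, TRAF7 was highest at 57.4 ± 2.03 TPM (mean ± SD, n = 2 libraries here and below), followed by TRAF4 at 31.6 ± 1.32 and TRAF2 at 30.4 ± 2.62 TPM, whose libraries overlapped. TRAF3 (20.4 ± 1.98), TRAF5 (18.7 ± 0.192), TRAF1 (16.1 ± 0.525) and TRAF6 (8.07 ± 0.0948 TPM) came next, each apart from its neighbour. In control Ribo-seq the order was TRAF6 (27.6 ± 1.18), TRAF1 (15.4 ± 1.77), TRAF2 (10.5 ± 0.0693), TRAF7 (7.72 ± 0.206), TRAF5 (3.45 ± 0.354), TRAF4 (2.38 ± 0.0438) and TRAF3 (1.11 ± 0.105 TPM), with no overlap between neighbours. In TPM, TRAF6 was thus lowest of the family in RNA and highest in footprints in control cells. These ranks rest on the authors' lengths as well as on the reads, and those lengths differed by gene between the assays.

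In ADAR1 siRNA Ribo-seq, TRAF1 (17.7 ± 8.51), TRAF2 (12.5 ± 1.39), TRAF6 (10.5 ± 2.88) and TRAF7 (8.26 ± 0.756 TPM) came first, and each overlapped its neighbour in that order. TRAF5 (2.90 ± 0.510) and TRAF4 (2.53 ± 0.170) overlapped each other, and TRAF3 (1.66 ± 0.677 TPM) was last. In ADAR1 siRNA Input, TRAF7 was again highest at 47.9 ± 0.788 TPM and TRAF6 lowest at 10.6 ± 0.567 TPM. TRAF2, TRAF4, TRAF1 and TRAF3 came between them, each overlapping the next, and TRAF5 stood apart below those.

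**Figure D2:**
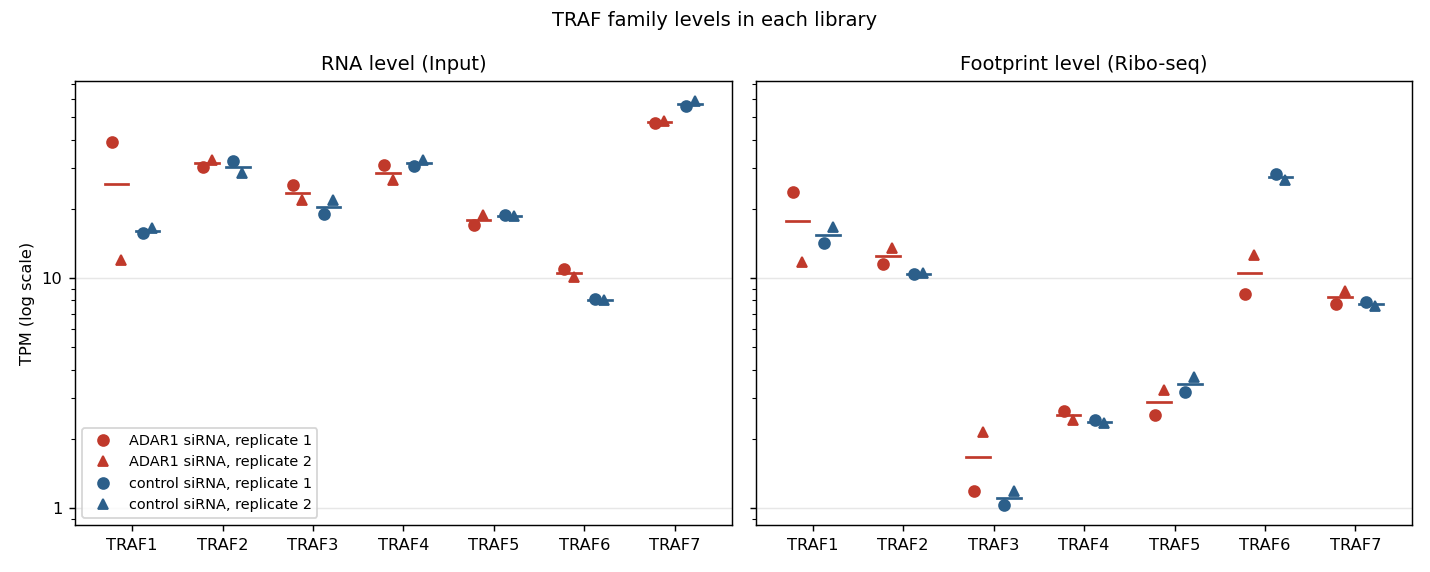
Level of the 7 TRAF genes in each library in TPM (log y axis), RNA at left and footprints at right, ADAR1 siRNA in red before control siRNA in blue. Circles are replicate 1, triangles replicate 2 and bars the mean of 2 libraries; TRAF6 footprints lie at 8.51 and 12.6 TPM with ADAR1 siRNA and at 28.4 and 26.8 TPM with control siRNA, and the ADAR1 siRNA libraries of TRAF1 lie on either side of the controls.

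Control translational efficiencies in the authors' deposited table ran from 0.0543 and 0.0542 for TRAF3 to 3.50 and 3.35 for TRAF6. TRAF4 (0.0785 and 0.0721), TRAF7 (0.141 and 0.129), TRAF5 (0.170 and 0.199), TRAF2 (0.323 and 0.368) and TRAF1 (0.901 and 1.01) lay between them. The median of all genes tested in translational efficiency was 0.363 and 0.384 in the same libraries, so TRAF3, TRAF4, TRAF5, TRAF7 and TRAF2 stood below it and TRAF1 and TRAF6 above it. TRAF6 exceeded 96.6% and 96.4% of genes in the controls, and 77.4% and 85.3% with ADAR1 siRNA. Since the lengths behind Input and Ribo-seq differed by gene, this order rests on the authors' length choice as well as on the reads.

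**Figure D3:**
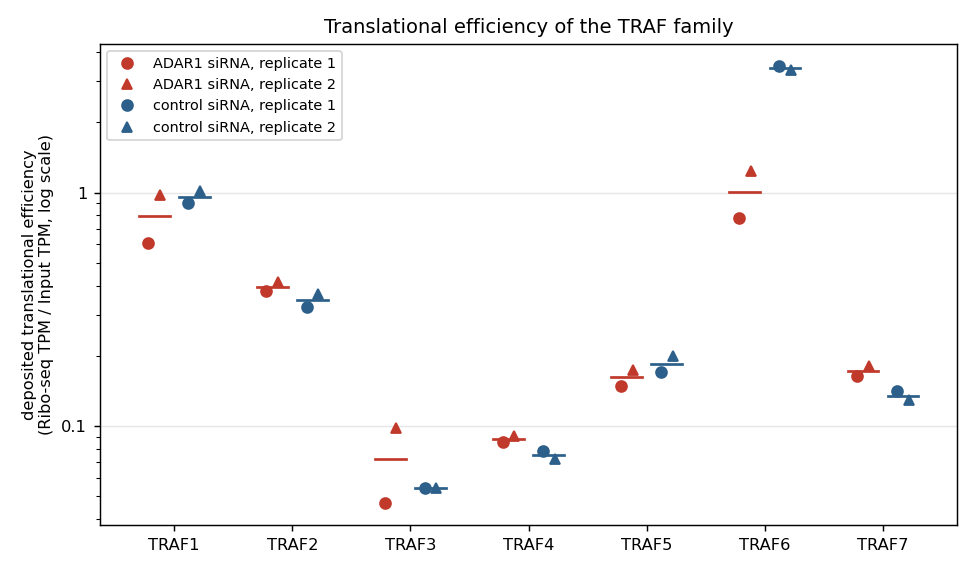
Deposited translational efficiency (Ribo-seq TPM over Input TPM, log y axis) of the TRAF genes for each replicate number, ADAR1 siRNA in red before control siRNA in blue, with bars at the mean of 2. TRAF6 lies at 0.776 and 1.24 with ADAR1 siRNA and at 3.50 and 3.35 with control siRNA, and TRAF3 is the lowest gene in both control libraries.

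In RNA 0 of the 6 other members passed the quasi-likelihood test of edgeR, adjusted by Benjamini-Hochberg over 12644 genes, of which 0.253% were called (0.0791% higher and 0.174% lower). At an unadjusted p under 0.05 there were 2 of 6 (TRAF3 and TRAF7), against 25.3% of all tested genes, and DESeq2 called 0. In scaled counts the groups did not overlap for 1 member that was higher with ADAR1 siRNA (TRAF3, against 28.5% of all tested genes) and 2 that were lower (TRAF4 and TRAF7, against 29.7%), or 3 of 6 in all against 58.2%. Their median log2 fold change was -0.01, against 0.00 over all tested genes. The count of 0 depended on the ADAR1 siRNA pair: without its Input replicate 1 there were 4 calls (TRAF1, TRAF3, TRAF4 and TRAF7), where 31.9% of all tested genes were called, and without its replicate 2 there were 3 (TRAF1, TRAF3 and TRAF7), where 42.1% were called.

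In footprints 0 of the 6 passed by edgeR among 12000 genes, of which 3.54% were called (1.88% higher and 1.67% lower). An unadjusted p under 0.05 was found for 0 of 6, against 24% of all tested genes. DESeq2 called 0 and gave no adjusted p for 3 of them (TRAF3, TRAF4 and TRAF5). In scaled counts the groups did not overlap for 3 of 6 (TRAF2, TRAF3 and TRAF7, all higher with ADAR1 siRNA), against 56.3% of all tested genes and 30.1% that were higher; TRAF6 was the member that lay lower, as 26.2% of genes did. The median log2 change of the 6 was 0.26, against 0.05 over all tested genes. Without ADAR1 siRNA Ribo-seq replicate 2, TRAF1 alone of the 6 was called, where 28.1% of all tested genes were. In translational efficiency 0 of the 6 passed by edgeR among 12953 genes, of which 0.0463% were called (0.0154% higher and 0.0309% lower). TRAF7 had an unadjusted p under 0.05, as 22.7% of all tested genes did, and DESeq2 called 0 of the 6. The deposited efficiencies did not overlap for 3 of 6 (TRAF2, TRAF4 and TRAF7, all higher with ADAR1 siRNA), against 52.4% of genes and 24.5% that were higher. TRAF6 was the member that lay lower, as 27.9% of genes did. The median log2 change of the 6 was 0.34, against 0.09 over all tested genes.

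**Figure D4:**
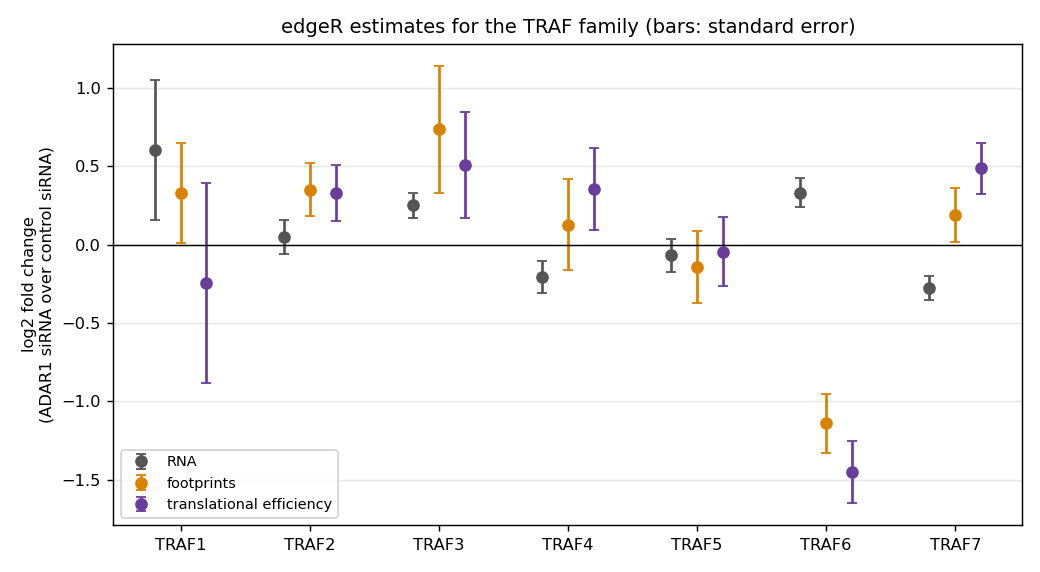
Log2 fold change of ADAR1 siRNA over control siRNA from edgeR (y axis) for the 7 TRAF genes in RNA, footprints and translational efficiency, with bars for the standard error. TRAF6 lies at 0.33 in RNA, -1.14 in footprints and -1.45 in translational efficiency; the other 6 did not pass the test in any of the 3.

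TRAF1 (NCBI gene 7185, chromosome 9, 120902393 to 120929171) encodes the member without a RING and is itself a known NF-kB target gene. Its RNA stood at 39.1 and 12.01 TPM in ADAR1 siRNA Input, against 15.7 and 16.5 TPM in control Input. Replicate 1 of the ADAR1 siRNA was far above both controls and replicate 2 below both. Footprints had the same layout, with 23.8 and 11.7 TPM for ADAR1 siRNA and 14.2 and 16.7 TPM for control siRNA. The log2 fold change was 0.60 ± 0.45 in RNA (edgeR adjusted p = 0.434) and 0.33 ± 0.32 in footprints (edgeR adjusted p = 0.566). Each sign turned with the library left out: in RNA the value was -0.40 with ADAR1 siRNA Input replicate 1 left out and 1.19 with replicate 2 left out, and the same omissions in Ribo-seq gave -0.38 and 0.76 in footprints.

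The replicate with the high TRAF1 level was also the one with less ADAR left. BIRC3, an NF-kB target whose product binds TRAF1 and TRAF2, also had its highest RNA level there, with 133.8 and 52.5 TPM in ADAR1 siRNA Input against 41.8 and 43.1 TPM in control Input, although both ADAR1 siRNA libraries lay above both controls. The part of the depth of depletion in the TRAF1 values was not tested.

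TRAF2 (NCBI gene 7186, chromosome 9, 136881958 to 136926607) encodes the ubiquitin ligase adaptor of TNF receptors that recruits BIRC2 and BIRC3. Its RNA stood at 30.6 and 32.6 TPM with ADAR1 siRNA and at 32.3 and 28.6 TPM with control siRNA, and the groups overlapped. Footprints stood at 11.6 and 13.5 TPM with ADAR1 siRNA, both above the 10.4 and 10.5 TPM with control siRNA. The footprint log2 change of 0.35 ± 0.17 did not pass (edgeR adjusted p = 0.242), nor did the translational efficiency change of 0.33 ± 0.18 (edgeR adjusted p = 0.308).

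TRAF5 (NCBI gene 7188, chromosome 1, 211326635 to 211374946) is the member closest to TRAF2 and TRAF3 in its known receptor partners. RNA was at 17.1 and 18.7 TPM with ADAR1 siRNA and at 18.8 and 18.6 TPM with control siRNA, and footprints at 2.54 and 3.26 TPM against 3.20 and 3.70 TPM. Both assays overlapped, with edgeR log2 changes of -0.07 ± 0.11 in RNA, -0.14 ± 0.23 in footprints and -0.05 ± 0.22 in translational efficiency, and edgeR adjusted p-values of 0.721 to 0.933.

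TRAF3 (NCBI gene 7187, chromosome 14, 102777449 to 102911500) encodes the adaptor that holds the kinase MAP3K14 in check and links antiviral sensors to TBK1. Its RNA stood at 25.3 and 21.8 TPM with ADAR1 siRNA, against 19.0 and 21.8 TPM with control siRNA. In TPM the lower ADAR1 siRNA library lay just under the higher control, whereas in scaled counts both lay above both controls. The log2 change of 0.25 ± 0.08 did not pass (edgeR adjusted p = 0.128). Footprints were sparse, with 34 and 66 counts for ADAR1 siRNA and 25 and 21 counts for control siRNA. The log2 change of 0.74 ± 0.41 (edgeR adjusted p = 0.302) rested largely on ADAR1 siRNA Ribo-seq replicate 2, without which it was 0.18.

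TRAF4 (NCBI gene 9618, chromosome 17, 28744011 to 28750956), first isolated from breast carcinoma, takes part in cell polarity and junctions. RNA was at 31.0 and 26.6 TPM with ADAR1 siRNA and at 30.6 and 32.5 TPM with control siRNA, with a log2 change of -0.21 ± 0.10 (edgeR adjusted p = 0.253). Footprints were at 2.65 and 2.41 TPM with ADAR1 siRNA, against 2.41 and 2.34 TPM with control siRNA, a log2 change of 0.13 ± 0.29 (edgeR adjusted p = 0.827). Counts behind these footprints were 83 and 64 with ADAR1 siRNA and 54 and 50 with control siRNA. The value was -0.11 with ADAR1 siRNA Ribo-seq replicate 1 left out and 0.29 with replicate 2 left out.

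TRAF7 (NCBI gene 84231, chromosome 16, 2155782 to 2178129) encodes the WD40 member, which binds the kinase MAP3K3. It had the highest RNA level, 47.4 and 48.5 TPM with ADAR1 siRNA against 56.0 and 58.8 TPM with control siRNA, and the groups did not overlap. The RNA log2 change was -0.28 ± 0.08 (edgeR adjusted p = 0.105). Footprints were at 7.73 and 8.80 TPM with ADAR1 siRNA and at 7.87 and 7.58 TPM with control siRNA. The deposited efficiency of 0.163 and 0.182 with ADAR1 siRNA lay above the 0.141 and 0.129 with control siRNA. The translational efficiency change of 0.49 ± 0.16 did not pass among all genes (edgeR adjusted p = 0.112). Its sign was that of 57.3% of all tested genes.

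Because TRAF1 and BIRC3 are known NF-kB targets, the RefSeq promoter windows of the family (250 bases before to 50 after each start that the promoter table holds, GRCh38.p14) were searched on both strands for the kappaB consensus. Of 11 windows of the 7 genes, 1 held a match, at TRAF3, and 11.27% of all 35116 windows held one. The stretch is shown with the match in capitals, on the plus strand at chr14:102777386-102777448, upstream of the start.
TRAF3: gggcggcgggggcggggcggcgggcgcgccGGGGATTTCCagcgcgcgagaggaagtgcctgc
The match lies at chr14:102777416-102777425. The TRAF2 window lies inside the gene, downstream of the start of its annotated span, and the stretch before that start was not searched. For TRAF1 and the other members the result says only that these letters are not in these windows. TRAF3 RNA, given above, did not pass the test.

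The other genes of TRAF signalling were taken from a list of 93, all in the table, of which 89 were tested in RNA and translational efficiency and 87 in footprints. In RNA 1 of 89 rose and 0 fell by edgeR (1.12% of the list, against 0.253% of all tested genes). At an unadjusted p under 0.05 there were 27, where 25.3% of all tested genes passed. DESeq2 called 3 (3.37% of the list, against 3.55% of all tested genes). The median log2 change was 0.05, against 0.00 over all tested genes. BIRC2, a ubiquitin ligase recruited by TRAF2, was the gene that rose, with 266.2 and 250.7 TPM in ADAR1 siRNA Input and 175.3 and 176.0 TPM in control Input. Its log2 change was 0.51 ± 0.06 (edgeR adjusted p = 0.0488). Among receptors TNFRSF21 had the smallest p in RNA (log2 0.45 ± 0.06, edgeR adjusted p = 0.0527). The BIRC2 call was lost without either control Input library, while its log2 change stayed at 0.51. That loss was not particular to BIRC2, since every RNA call of the main fit was lost there. It was also lost with upper-quartile scaling, again at a log2 change of 0.51. With upper-quartile scaling 11 genes of the whole table were called in RNA, against 32 in the main fit. Dropping ADAR1 siRNA Input replicate 1 gave 33 calls in the list (37.1%, against 31.9% of all tested genes), and dropping replicate 2 gave 51 (57.3%, against 42.1%).

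In footprints 3 of 87 rose and 0 fell by edgeR (3.45% of the list, against 3.54% of all tested genes), so the share was near the background. DESeq2 called 10 (11.5% of the list, against 8.15% of all tested genes), 8 higher and 2 lower with ADAR1 siRNA. The lower pair were IKBKG, the regulatory subunit of the IKK complex (log2 -0.74, DESeq2 adjusted p = 0.0461), and TRAIP (log2 -0.91, DESeq2 adjusted p = 0.0363). The list median was 0.19, against 0.05 over all tested genes. TNFRSF21, a death receptor known as DR6, stood at 59.9 and 71.9 TPM in ADAR1 siRNA Ribo-seq and at 27.5 and 26.0 TPM in control Ribo-seq. Its log2 change of 1.39 ± 0.15 (edgeR adjusted p = 0.00751) was called whichever single Ribo-seq library was left out.

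TNFRSF1A, the main TNF receptor, stood at 56.7 and 81.9 TPM with ADAR1 siRNA and at 44.9 and 42.7 TPM with control siRNA in Ribo-seq. Its footprint log2 change was 0.70 ± 0.16 (edgeR adjusted p = 0.0460), beside -0.02 ± 0.07 in RNA. BIRC3 footprints stood at 9.47 and 5.70 TPM with ADAR1 siRNA and at 3.40 and 3.54 TPM with control siRNA (log2 1.29 ± 0.30, edgeR adjusted p = 0.0490). TNFRSF1A lost its call without either control Ribo-seq library (log2 0.73 and 0.66), and BIRC3 without control Ribo-seq replicate 2 (log2 1.27). Leaving out ADAR1 siRNA Ribo-seq replicate 1 gave 18 calls in the list (20.7%, against 15.3% of all tested genes), and leaving out replicate 2 gave 26 (29.5%, against 28.1%). Leaving out control Ribo-seq replicate 2 gave 1 call (1.14%, against 0.621%).

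In translational efficiency 0 of 89 passed by edgeR (against 0.0463% of all tested genes), with 22 at an unadjusted p under 0.05, where 22.7% of all tested genes passed. DESeq2 called 6 (6.74% of the list, against 7.58% of all tested genes), all higher with ADAR1 siRNA. Dropping ADAR1 siRNA Ribo-seq replicate 1 gave 7 edgeR calls (7.87%, against 3.81% of all tested genes), and dropping replicate 2 gave 17 (19.1%, against 16.9%). The list median was 0.22, against 0.09 over all tested genes. Among receptors and their adaptors the median was 0.40, with 25 of 27 values above 0 (92.6%, against 57.3% of all tested genes). In RNA 9 of 27 were above 0 (33.3%, against 50.6%), with a median of -0.08, and in footprints 22 of 26 (84.6%, against 54.4%). Of the 27 in translational efficiency, 0 passed by edgeR, with 8 at an unadjusted p under 0.05. DESeq2 called 4 (IRAK1, LTBR, TNFRSF1A and TNFRSF21) and gave no adjusted p for 11. The smallest p belonged to TNFRSF21 (log2 0.97 ± 0.15, edgeR adjusted p = 0.0534). Among the binding partners it belonged to TRAIP, a ubiquitin ligase that binds TRAF proteins, at -0.88 ± 0.27 (edgeR adjusted p = 0.0998). The 14 partners had a median of -0.10.

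Of the enzymes of ubiquitin conjugation and removal, which build or trim the chains that TRAF proteins form, 0 of 15 passed in any comparison by edgeR. At an unadjusted p under 0.05, which 25.3%, 24% and 22.7% of all genes reached in RNA, footprints and translational efficiency, there were 7, 0 and 2. The counts for the groups below stand against the same shares. In RNA SHARPIN, a subunit of the linear chain assembly complex, had the smallest p (log2 -0.44 ± 0.09, edgeR adjusted p = 0.0725). TNFAIP3, the A20 deubiquitinase, was at 0.78 ± 0.35 in footprints, and RBCK1, another subunit of the linear chain complex, at 0.67 ± 0.19 in translational efficiency.

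Of 18 kinases downstream of the TRAF proteins 0 passed in each comparison by edgeR, with 6 at an unadjusted p under 0.05 in RNA, 6 in footprints and 4 in translational efficiency. TAB2, the partner of MAP3K7 that reads ubiquitin chains, was at 0.28 ± 0.07 in RNA. MAPK9, a JNK kinase, was at 0.75 ± 0.19 in footprints and 0.75 ± 0.17 in translational efficiency (edgeR adjusted p = 0.0555 and 0.0578).

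Among transcription factors and their inhibitors 0 passed by edgeR (5 of 11, 3 of 10 and 2 of 11 at an unadjusted p under 0.05 in RNA, footprints and translational efficiency). The NF-kB subunits of smallest p were REL in RNA (0.31 ± 0.08), RELB in footprints (0.93 ± 0.22) and RELA in translational efficiency (0.49 ± 0.16). Of 4 tested proteins that share the MATH domain 0 passed by edgeR, with 1, 1 and 2 at an unadjusted p under 0.05 in the same order. The ubiquitin ligase adaptor SPOP was at 0.22 ± 0.07 in RNA and -0.51 ± 0.15 in translational efficiency, and the ubiquitin ligase TRIM37 at 0.53 ± 0.18 in footprints. In these groups DESeq2, which called 3.55%, 8.15% and 7.58% of all genes in RNA, footprints and translational efficiency, called TNFAIP3 in RNA, 4 genes in footprints (MAPK9, RELB and NFKBIA higher, IKBKG lower) and MAP3K3 and MAPK9 in translational efficiency.

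**Figure D5:**
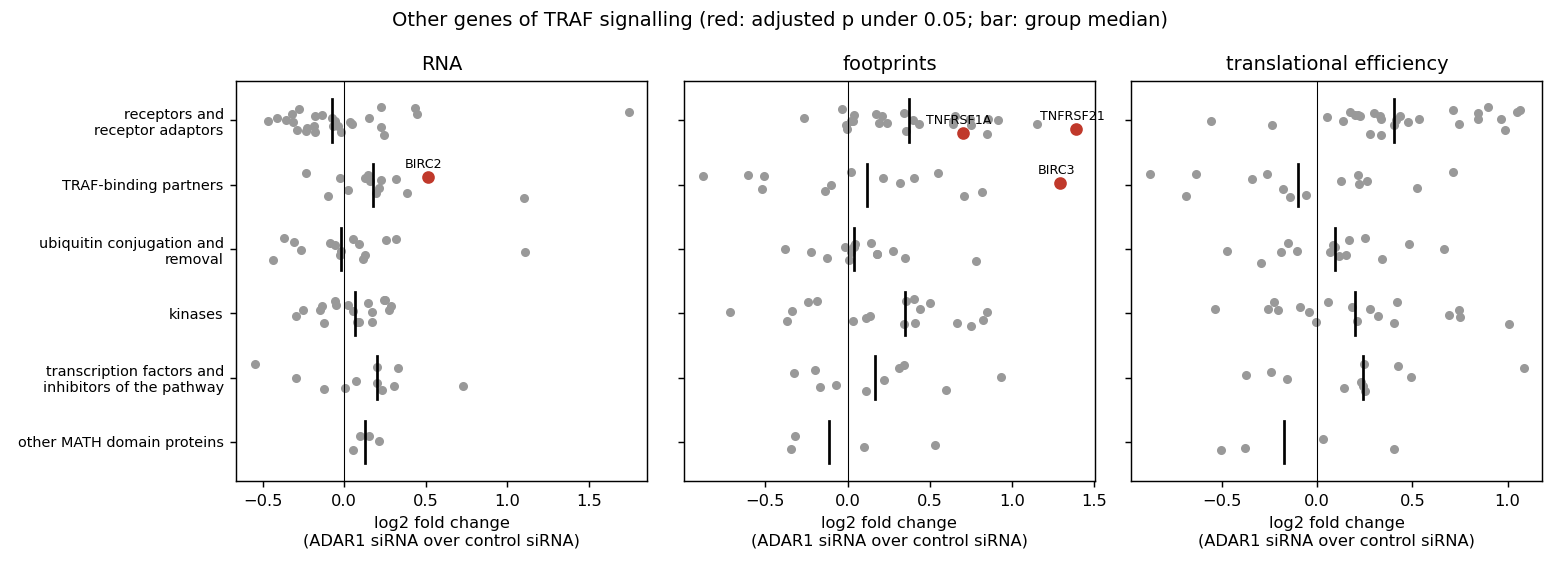
Log2 fold change of ADAR1 siRNA over control siRNA (x axis) for the tested genes of 6 groups of TRAF signalling in RNA, footprints and translational efficiency; each point is a gene, black bars are group medians and red points have an edgeR adjusted p under 0.05. BIRC2 in RNA and TNFRSF1A, TNFRSF21 and BIRC3 in footprints are the called genes, and the receptors have a median of 0.40 in translational efficiency.

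The 5 genes whose pattern was most like that of TRAF6 were PINX1, COPS4, CDC16, IPO5 and KIF3A, by Pearson correlation over the 8 libraries of log2 CPM values, centred within each assay. They were taken from 9735 genes with a mean of at least 50 counts in each assay. Correlations were 0.996, 0.993, 0.991, 0.990 and 0.987, and 120 genes exceeded 0.95. The points share libraries, depth and the 2-group layout, so this is a description of shape only. Their footprint log2 changes were -0.52 for PINX1, -0.49 for COPS4, -0.37 for CDC16, -0.47 for IPO5 and -0.64 for KIF3A. PINX1, a telomerase inhibitor, had footprints of 14.5 and 16.4 TPM with ADAR1 siRNA and 24.9 and 22.7 TPM with control siRNA.

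Of the family itself, TRAF2 (-0.79), TRAF7 (-0.70), TRAF4 (-0.54) and TRAF1 (-0.18) correlated negatively with TRAF6 on this measure and TRAF5 positively (0.51). TRAF3 did not reach the mean count of 50 in Ribo-seq.

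TRAF6, whose values chose the family, is left out here as it is given with no test. Among the other genes of the whole table, 5 passed edgeR's test in translational efficiency. Of these, 4 had a fractional count in at least 1 library, and 3 (H1-2, FAM72D and GTF2H2C_2) had fractional counts in all 4 Ribo-seq libraries, as TRAF6 did. The last pair had fractional Input counts too. The share of all tested genes with either trait was not taken, so these counts stand without a background. Over the whole table, genes without reads included, 87.0% to 90.1% of the counts in a library were whole. The part of read sharing in these calls was not tested.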

How the data were processed

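RNA-seq (Input) and Ribo-seq libraries were grouped by their titles, 2 per group. Per the submitters' processing notes, the tools were featureCounts, STAR, Bowtie2 and cutadapt, on GRCh38 (hg38); no source used here gives versions, settings or strand use. The authors deposited an estimated count per gene, TPM, and translational efficiency as a ratio of Ribo-seq TPM to Input TPM, which matched that ratio for 100% of values within a tolerance of 1e-06. Symbols were found for 19669 of 19892 gene numbers, with coordinates from RefSeq (GRCh38.p14, 1-based).

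Counts were rounded and fitted over the whole table with edgeR 4.0.16 in R 4.3.3 (TMM, filterByExpr, quasi-likelihood test, two-sided, Benjamini-Hochberg threshold 0.05). RNA used 4 Input libraries, footprints 4 Ribo-seq libraries and translational efficiency all 8, as the interaction of assay and siRNA. The SE is the log2 fold change over the square root of F. DESeq2 1.42.0 was an alternative. Scripts were tested on simulated data with the same spread setting for every gene and group, which these data do not have. Replicates differed beyond sampling noise. The mean chi-square per gene was 1.90 in control Input and 16.9 in ADAR1 siRNA Input. In Ribo-seq it was 7.05 with control siRNA and 32.7 with ADAR1 siRNA. Named genes are the members, ADAR, list genes past the threshold or of smallest p in their group, and the 5 genes most like TRAF6; other genes named were chosen after their values were seen. The members and lists were chosen with earlier results of these data known.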

Additional observations from a re-analysis of the deposited data

How the results depend on the processing

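Of 236 values of single members under the alternatives, 217 were counted as unchanged. These kept their direction and, where an adjusted p was given, their side of the threshold, or moved by less than the replicate SD. Among them, TRAF3 in translational efficiency fell from 0.51 to 0.0078 without ADAR1 siRNA Ribo-seq replicate 2. Of the rest, 7 gained a call in the same direction, 3 (TRAF6, same direction) moved by more than the replicate SD, and 9 reversed. TRAF1 in RNA without ADAR1 siRNA Input replicate 1 both reversed and gained a call, so calls were gained 8 times. TRAF6 ran from 0.31 to 0.36 in RNA, -1.38 to -0.97 in footprints and -1.63 to -1.30 in translational efficiency. Reversals all came from leaving out 1 library. In RNA the leave-one-out range was -0.40 to 1.19 for TRAF1, -0.0285 to 0.124 for TRAF2 and -0.162 to 0.0183 for TRAF5. In footprints it was -0.38 to 0.76 for TRAF1 and -0.11 to 0.29 for TRAF4. In translational efficiency it was -0.97 to 0.67 for TRAF1 (0.24 without ADAR1 siRNA Ribo-seq replicate 2) and -0.208 to 0.0328 for TRAF5.

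Calls among the 6 members other than TRAF6 stayed at 0 under each scaling, filter and tool, and ran from 0 to 4 in RNA and 0 to 1 in footprints when 1 library was left out. The alternatives here, in order, were upper-quartile scaling, no count filter, a mean count of at least 50 and DESeq2. DESeq2 left list genes without an adjusted p: 11 of 89 in RNA, 23 of 87 in footprints and 23 of 89 in translational efficiency. The list of 93 had 0, 2, 2 and 3 calls in RNA, where 11, 95, 73 and 449 of all tested genes were called. In footprints it had 7, 18, 7 and 10, against 487, 1693, 525 and 978. In translational efficiency it had 7 with no count filter, against 854, and 6 with DESeq2, against 982. Leaving out 1 library gave 0 to 51 calls in RNA, 1 to 26 in footprints and 0 to 17 in translational efficiency, and the cause was not tested. With 1 library left in a group, that library is assumed to vary like the other pair.

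The labels do not tie same-numbered libraries to one another, but the deposited efficiencies divide Ribo-seq by Input libraries of the same number. The main fits did not pair the libraries. Replicate differences of same-numbered libraries correlated at -0.04 and 0.04 between siRNAs. Between assays they correlated at 0.38 for ADAR1 siRNA and 0.01 for control siRNA. With the replicate block the list had 10 calls in RNA, 19 in footprints and 10 in translational efficiency. The 6 members had 0 in each. Over all tested genes the block gave 1095, 2102 and 1169 calls in the same order, against 32, 425 and 6 in the main fits. TRAF3 and TRAF4 footprints, at 21 to 83 counts per library, are limited by depth, and a mean count of at least 50 left TRAF3 with no value in footprints or translational efficiency.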
